A study of Capra hircus with 72 samples.

Results

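The medial prefrontal cortex (mPFC) of goats that had breathed air with 6% CO2 for 14 days was compared with the mPFC of goats that had breathed room air for 14 days. The members are the 6 mild hypercapnia and the 6 room air libraries that the labels give for this region, 12 of the 72 libraries of the study, and they are described across 15403 tested genes of the 21343 listed. The animals were female Capra hircus, and RNA was taken as total RNA from cortical tissue. The study also sampled 3 brainstem sites of breathing control, the retrotrapezoid nucleus (RTN), the ventral respiratory column (VRC) and the solitary tract nucleus (NTS). A moderate condition added 7 days at 8% CO2 after 7 days at 6%. Its 6 mPFC libraries share the room air libraries with the comparison described here, and all 18 mPFC libraries were fitted together. The series text gives 6 animals per condition, but no label ties a library to a named animal, so p-values measure the spread between these libraries. Pieces of cortex hold many cell types, and in such bulk RNA fewer cells of a type and less RNA per cell cannot be told apart.

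CO2 dissolves to carbonic acid, and chronic hypercapnia therefore raises both CO2 and acidity in blood and brain. Retained bicarbonate then offsets acidity, while CO2 stays raised. The mPFC lies outside the brainstem circuits that drive breathing and takes part in arousal, attention and the control of autonomic and emotional responses. Early response genes are a set that neurons, glia and vessel cells transcribe within minutes of firing, growth factor or stress signals, without new protein synthesis. Their products are mostly short-lived transcription factors, phosphatases that end the signal, and proteins that act at the synapse or in the extracellular matrix.

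The libraries carried the markers of cortex. SLC17A7, the vesicular glutamate transporter of cortical excitatory neurons, ran from 567 CPM (library counts scaled to the same total) through a median of 802 to 1068 in room air, and from 616 through 736 to 817 in mild hypercapnia. Of 12 excitatory neuron markers all 12 passed the filter on low counts. Of the 10 hindbrain markers in the table none passed it, and HOXA3 had 0 counts in all 12 libraries. Library totals were 17.59 ± 1.93 M counts (SD, n = 6) in room air and 20.23 ± 2.12 M in mild hypercapnia, with ranges of 14.7 to 20.11 M and 17.3 to 22.65 M, so the mild libraries were deeper on average. The part of that depth gap in the results was not tested. Room air replicate 2 stood apart in smooth muscle genes and mild replicate 5 in ribosomal protein genes, and the results that rest on them are given with and without them.

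In mPFC the genes lowest in mild hypercapnia, in order of p, were led by early response genes. No gene passed in edgeR's quasi-likelihood test at a Benjamini-Hochberg adjusted p under 0.05 (0% of 15403). At an unadjusted p under 0.05 there were 222 genes lower (1.44%) and 310 higher (2.01%), 532 in all (3.45%), where 770 are expected by chance. The log2 fold change was below 0 in 52% of genes and its median over all genes was -0.01. DESeq2 called 2 genes (0.013%), APOLD1 and CSRNP1, both lower in mild hypercapnia and both early response genes. Among the lower genes with the smallest p, 5 of the first 10, 7 of the first 20 and 10 of the first 50 were on the early response list. That list held 53 of the 15403 genes tested and was chosen with earlier results of these data known. These counts therefore describe the genes and are no separate evidence.

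The early response list held 58 symbols, of which 54 were in the table and 53 were tested. FOSL1, an AP-1 subunit, did not pass the filter, with 14 counts summed over the room air libraries and 9 over the mild ones. The median log2 fold change of the 53 was -0.32, beside -0.01 over all genes, and 40 lay below 0. At an unadjusted p under 0.05, 20 were lower and 0 higher, where 1.44% and 2.01% of all genes were. None of the 20 passed the adjustment over all genes in edgeR. The mean log2 CPM over the 53 genes was 4.46 ± 0.26 (SD, n = 6) in room air, with a range of 4.15 to 4.85. In mild hypercapnia it was 4.11 ± 0.17, with a range of 3.92 to 4.37, so the groups overlapped. In the text that follows an edgeR adjusted p of mild against room air that is not printed rounds to 1.00. Of these 20, 16 had all 6 mild libraries under the median of room air, 3 had 5 of 6 and 1, MAFF, had 3 of 6. Mild replicate 4 was the least different of the mild libraries. It lay below the lowest room air library for 3 of the 20 genes, while the other mild libraries did so for 10 to 16. The 20 were picked by p in these same libraries, so such counts describe them and add no separate evidence. Early response genes named below that the selection rule did not pick were chosen after their values were seen.

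**Figure D1:**
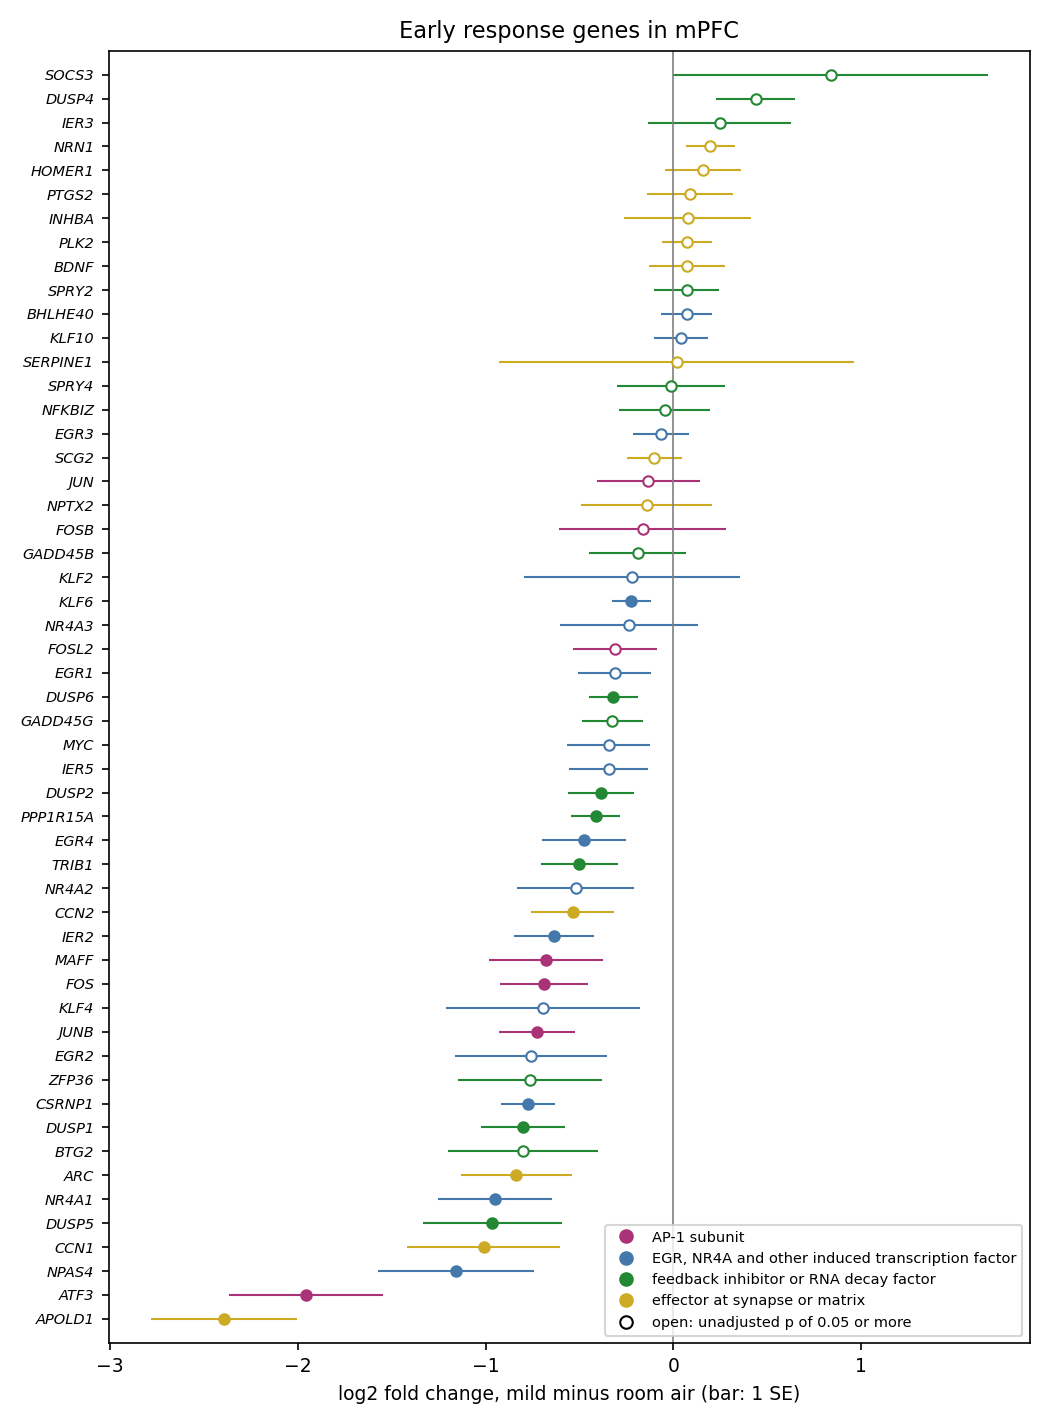
Log2 fold change in mPFC, mild hypercapnia minus room air, with a bar of 1 SE, for the 53 early response genes tested, coloured by role. Filled points are the 20 genes at an unadjusted p under 0.05, and each of these lies to the left of 0.

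The AP-1 subunits are leucine zipper proteins that pair to bind DNA, and 7 were tested. All 7 had a log2 fold change below 0 (median -0.68), and 4 were at an unadjusted p under 0.05. ATF3, a stress-induced member, ran from 0.491 CPM through a median of 0.896 to 1.28 in room air and from 0.113 through 0.176 to 0.419 in mild hypercapnia. The 2 groups did not overlap, although the gene was low in both, and the log2 fold change was -1.96 ± 0.41 (SE; edgeR adjusted p = 0.72). JUNB ran from 58.4 CPM through 104 to 142 in room air and from 43.6 through 58.3 to 90.2 in mild hypercapnia, a log2 fold change of -0.73 ± 0.20 (edgeR adjusted p = 1.00). Its groups overlapped, since the lowest room air library stood under the highest mild one. FOS, the prototype of these genes, had a room air range of 49.6 to 133 CPM (median 106) and a mild range of 49.9 to 94 (median 57.3), with a log2 fold change of -0.69 ± 0.23. MAFF was at 1.77 ± 1.02 CPM (SD, n = 6) in room air and 1.1 ± 0.249 in mild hypercapnia, and its room air mean was raised by replicate 6 at 3.735 CPM (log2 -0.68, and -0.32 without that library). JUN and FOSB, subunits of the same complex, differed by less than their errors: log2 -0.13 ± 0.27 and -0.16 ± 0.45.

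Of 17 other induced transcription factors, 15 had a log2 fold change below 0 (median -0.34) and 6 were at an unadjusted p under 0.05. CSRNP1, a nuclear protein induced by AXIN1 and cytokines, ran from 18.1 CPM through 25.2 to 29.4 in room air and from 11 through 14.4 to 18.6 in mild hypercapnia. The groups met only at their edges, and the log2 fold change was -0.78 ± 0.14 (edgeR adjusted p = 0.26; DESeq2 adjusted p = 0.00162). NR4A1, an orphan nuclear receptor, ran from 85.4 CPM through 122 to 179 in room air and from 46.7 through 66 to 104 in mild hypercapnia (log2 -0.95 ± 0.30). NPAS4, a factor that neurons induce upon calcium entry, ran from 6.76 through 14.5 to 23.4 CPM and from 3.56 through 6.45 to 11.8 (log2 -1.16 ± 0.42). For both genes all 6 mild libraries were under the median of room air, and the ranges overlapped. IER2 (log2 -0.64 ± 0.21), EGR4 (-0.48 ± 0.22) and KLF6 (-0.22 ± 0.10) made up the rest of the 6. The zinc finger factors EGR1 and EGR3, widely used as activity markers, were not among them. EGR1 was at 163 ± 46.2 CPM in room air, against 131 ± 25.4 in mild hypercapnia (log2 -0.31 ± 0.19), and EGR3 at 35.1 ± 8.23 and 33.5 ± 3.19 (log2 -0.07 ± 0.15).

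Among 16 feedback inhibitors and RNA decay factors, which shut the response off, 12 had a log2 fold change below 0 (median -0.32) and 6 were at an unadjusted p under 0.05. DUSP1, a phosphatase that inactivates MAP kinases, had a room air range of 150.1 to 277 CPM (median 190.1) and a mild range of 72.8 to 163 (median 108). The ranges overlapped at the edge, and the log2 fold change was -0.80 ± 0.23 (edgeR adjusted p = 1.00). PPP1R15A, which directs a phosphatase to the translation factor eIF2, was at 26.6 ± 4.33 CPM in room air, against 20 ± 2.31 in mild hypercapnia (log2 -0.41 ± 0.13). The further phosphatases DUSP5 (log2 -0.96 ± 0.37), DUSP2 (-0.38 ± 0.18) and DUSP6 (-0.32 ± 0.13) and the pseudokinase TRIB1 (-0.50 ± 0.20) were lower too at an unadjusted p under 0.05. DUSP4 was on the other side, at 4.93 ± 1.39 CPM in room air, against 6.67 ± 1.28 in mild hypercapnia (log2 0.44 ± 0.21). SOCS3, an inhibitor of cytokine signalling, had the most positive log2 fold change of the list with a wide error, 0.84 ± 0.84.

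The 13 effector genes were divided. Of these, 6 lay below 0 and 7 above, with a median of 0.02, and 4 were at an unadjusted p under 0.05, all lower. APOLD1, an early response gene of endothelial cells (ENSCHIG00000008149, chromosome 5), ran from 3.01 CPM through a median of 7.3 to 19.3 in room air and from 1.32 through 1.57 to 2.17 in mild hypercapnia. No mild library reached the lowest room air library, and the spread was wider in room air (8.70 ± 5.97 CPM, SD, n = 6) than in mild hypercapnia (1.65 ± 0.291). The log2 fold change was -2.39 ± 0.39 (edgeR adjusted p = 0.11; DESeq2 adjusted p = 8.32e-06). Without room air replicate 1 the edgeR adjusted p was 0.0211, and over the other settings tried in edgeR and limma it stayed above 0.05. ARC, which moves glutamate receptors away from synapses, ran from 68.8 CPM through 108 to 206 in room air and from 37.1 through 63 to 107 in mild hypercapnia (log2 -0.84 ± 0.30). The matrix proteins CCN1 (log2 -1.01 ± 0.41) and CCN2 (-0.54 ± 0.22) were also lower, each with all 6 mild libraries under the median of room air. Other effectors differed by less than their errors. BDNF, a neurotrophin, was at 29.5 ± 5.96 CPM in room air, against 31 ± 6.12 in mild hypercapnia, HOMER1, a postsynaptic scaffold, at 57.1 ± 6.27 and 63.7 ± 27.7, and PLK2, a synaptic kinase, at 490.5 ± 46.7 and 516 ± 76.1.

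**Figure D2:**
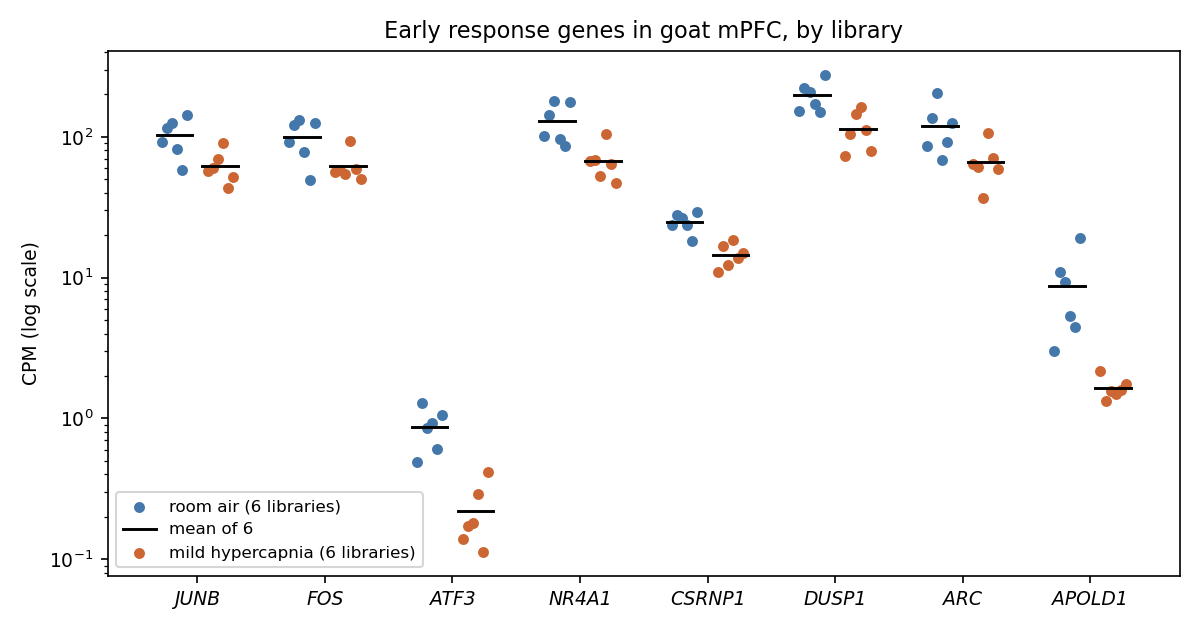
CPM on a log scale in each of the 6 room air and 6 mild hypercapnia libraries for 8 early response genes, with a line at the mean of 6. APOLD1 and ATF3 are the genes whose groups do not overlap.

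The early response genes were also ranked by level per gene length. By the deposited RPKM, which divide by gene length, SCG2, a secreted granin, had the highest mean in room air at 477 and 446 in mild hypercapnia. PLK2 followed at 172 and 181, then IER2 at 146 and 94.3, ARC at 98.5 and 55.4, EGR1 at 98.4 and 79.3, and JUNB at 97.2 and 59.1. Of these 6 genes IER2, ARC and JUNB were at an unadjusted p under 0.05 in the count test.

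Levels of vessel and fibroblast markers differed between libraries and are given beside the early response genes. The mean log2 CPM over the 15 pericyte and smooth muscle markers was 4.48 ± 0.57 (SD, n = 6) in room air, with a range of 3.89 to 5.48, and 4.09 ± 0.40 in mild hypercapnia, with a range of 3.69 to 4.52. That of the 12 endothelial markers was 4.43 ± 0.24 and 4.43 ± 0.41, and CLDN5, the endothelial tight junction protein, stood at 184 ± 31.8 and 185 ± 74.2 CPM. The 9 fibroblast markers spanned 3.78 to 6.93 in room air and 3.50 to 6.65 in mild hypercapnia. With the smooth muscle score as a covariate 16 of the 53 early response genes were lower at an unadjusted p under 0.05 (1.34% of all genes), and with the fibroblast score 19 (1.47%). Without room air replicate 2 the count was 17 (1.05%), without mild replicate 5 also 17 (2.38%), and without both libraries 14 (2.16% of all genes).

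**Figure D3:**
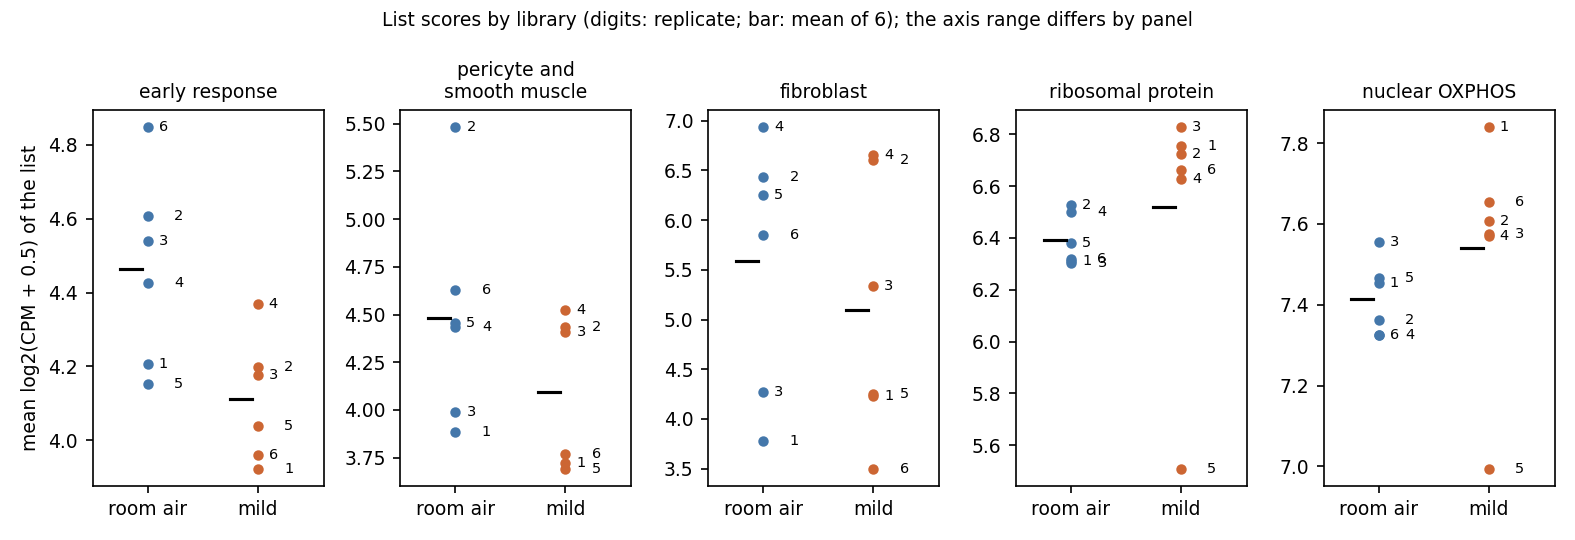
Mean log2(CPM + 0.5) over each of 5 gene lists in the 6 room air and 6 mild libraries; digits are replicate numbers, bars are means of 6, and the axis range differs by panel. Room air replicate 2 is the highest point for pericyte and smooth muscle markers and mild replicate 5 the lowest for ribosomal protein and oxidative phosphorylation genes.

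Smooth muscle genes were lower in mild hypercapnia by a margin that rested on 1 room air library. Of 15 pericyte and smooth muscle markers 14 had a log2 fold change below 0 (median -0.32), and 2 were lower at an unadjusted p under 0.05 (1.44% of all genes). MYH11, the myosin heavy chain of smooth muscle, ran from 35.1 CPM through 69.6 to 365 in room air and from 14.8 through 29.9 to 75.1 in mild hypercapnia (log2 -1.52 ± 0.59). CNN1, calponin, ran from 9.75 through 22.3 to 74.2 CPM and from 8.28 through 13.8 to 20.4 (log2 -1.05 ± 0.43). In both genes room air replicate 2 was the highest library, and without it the log2 fold changes were -0.63 and -0.46. Without it 0 markers were at an unadjusted p under 0.05 in edgeR (1.05% of all genes lower), the median was -0.11 and 12 of 15 lay below 0. All 9 fibroblast markers lay below 0 (median -0.33) with 0 at an unadjusted p under 0.05, and the median without both libraries was -0.02, with 5 of 9 below 0. With single libraries left out it was -0.78 (without mild replicate 4) to -0.01 (without room air replicate 4).

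Genes of Notch signalling were among the lower ones. DLL4, a Notch ligand of arterial and sprouting endothelium, ran from 4.28 CPM through 6.81 to 8.98 in room air and from 2.51 through 3.52 to 5.83 in mild hypercapnia (log2 -0.89 ± 0.26, edgeR adjusted p = 1.00). The receptors NOTCH1 (11.6 ± 1.45 and 8.32 ± 2.36 CPM, log2 -0.48 ± 0.17) and NOTCH2 (13.8 ± 1.92 and 9.84 ± 2.34, log2 -0.49 ± 0.17) had the same sign. For each of these 3 genes the 6 mild libraries were under the median of room air, with overlapping ranges. Of 15 Notch ligands, receptors and targets 12 lay below 0 (median -0.16), and of 20 genes of VEGF, angiopoietin and apelin signals 16 did (median -0.13). Over the 35 genes 3 were lower and 0 higher at an unadjusted p under 0.05 in edgeR, beside 1.44% and 2.01% of all genes. In moderate hypercapnia, against the same room air libraries, 5 of the 15 lay below 0 (median 0.05) and 10 of the 20 (median 0.005). There DLL4 was at log2 -1.12 ± 0.26, NOTCH1 at -0.37 ± 0.17 and NOTCH2 at -0.14 ± 0.17. In mild hypercapnia the log2 fold changes in NTS, VRC and RTN were -0.48, -0.62 and -0.84 for DLL4. They were -0.64, -0.60 and -0.43 for NOTCH1, and -0.26, -0.39 and -0.39 for NOTCH2. The brainstem libraries likely come from the same animals as the mPFC libraries, so these values are not separate evidence. VEGFA, the main angiogenic factor, stood at 31.9 ± 8.42 CPM in room air, against 26.1 ± 8.86 in mild hypercapnia (log2 -0.29 ± 0.21). MFSD2A, a lipid transporter of the blood-brain barrier, was the 1 endothelial marker of 12 at an unadjusted p under 0.05, at 37.1 ± 7.22 and 28.3 ± 4.11 CPM (log2 -0.39 ± 0.15), while 9 of the 12 lay above 0.

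Among genes with a symbol and a mean of at least 5 CPM in 1 of the 2 groups, the 10 of smallest p on the higher side had log2 fold changes of 0.28 to 0.50. The first of these 10, C16orf87 (ENSCHIG00000024479, chromosome 18), ran from 8.4 CPM through 9.86 to 10.8 in room air and from 11.5 through 13.2 to 17.1 in mild hypercapnia. The groups did not overlap, and the log2 fold change was 0.50 ± 0.12 (edgeR adjusted p = 1.00). EFCAB2, a calcium-binding protein of motile cilia, ran from 5.05 through 6.01 to 6.49 CPM and from 7.05 through 8.29 to 9.68 (log2 0.49 ± 0.13). EIF2S1, the alpha subunit of the translation factor eIF2, had a room air range of 134 to 151 CPM and a mild range of 156 to 235 (log2 0.31 ± 0.09), again without overlap. Others of the 10 with smallest p handle RNA, chromatin or DNA: RPP30 of RNase P (log2 0.43 ± 0.11), the mitochondrial tRNA methyltransferase TRMT10C (0.28 ± 0.08), the exosome cofactor C1D (0.42 ± 0.13), the histone reader YEATS4 (0.35 ± 0.11) and the mismatch repair protein PMS1 (0.49 ± 0.14). NDUFA5, a subunit of respiratory complex I (log2 0.37 ± 0.11), and WASL, an activator of actin branching (0.40 ± 0.12), completed them. For each of these 10, picked by p in these same libraries, the 6 mild libraries were over the median of room air. None passed the adjustment. The lower 10 by the same limits held, beside genes already named, the Mediator subunit MED24 (log2 -0.29 ± 0.08), the lipid-modifying enzyme PLAAT2 (-2.93 ± 0.89), the Rab GTPase regulator SGSM2 (-0.51 ± 0.15) and the VCP cofactor NPLOC4 (-0.28 ± 0.09). PLAAT2 rested on a few room air libraries, with a log2 fold change of -1.54 without room air replicate 4: it ran from 0.406 CPM through 2.67 to 31.6 there and from 0.698 through 0.929 to 1.55 in mild hypercapnia.

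The 6 room air and 6 mild libraries did not overlap at all for 8 genes on the lower side (0.0519%) and 15 on the higher side (0.0974%). Of the lower ones 4 had a symbol, APOLD1, ATF3, UVSSA and RNF141. Of the higher ones 10 had a symbol. The members of these sets that are named here for the first time were chosen after their values were seen. RNF141, a zinc finger protein, stood at 50.8 ± 3.86 CPM in room air, against 37.1 ± 5.21 in mild hypercapnia (log2 -0.45 ± 0.15). LCA5, a ciliary protein, stood at 2.3 ± 0.539 and 3.78 ± 0.178 CPM (log2 0.72 ± 0.22), the largest log2 fold change of these 10. The rest of the higher genes, DNAJC2, SPTLC1, GPATCH11, TXNDC9, REXO2 and ADK beside those above, had log2 fold changes of 0.20 to 0.31.

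Ribosomal protein genes and nuclear genes of oxidative phosphorylation were higher in 5 of 6 mild libraries and lower in mild replicate 5. The values of ribosomal proteins are uncertain, since how reads shared with their many near-identical copies were counted is not stated in the sources used here. Of 78 symbols on the ribosomal protein list 33 were found and tested. The mean log2 CPM over these 33 genes was 6.30 to 6.53 in room air. In mild replicate 5 it was 5.51, and in the other mild libraries 6.63 to 6.83, above every room air library. With all libraries the median log2 fold change was 0.20, 31 of 33 lay above 0 and 0 were at an unadjusted p under 0.05 in edgeR, while limma with quality weights, which gave mild replicate 5 the lowest weight (0.33), had 7 (3.96% of all genes). Without mild replicate 5 all 33 lay above 0, the median was 0.35 and 24 were at an unadjusted p under 0.05, where 4.51% of all genes were higher. That library is singled out because it was the lowest on this list, so these values describe the other libraries and are no separate test. RPL27 of the large subunit ran from 95.1 CPM through 105 to 120.1 in room air and from 60.7 through 146 to 176 in mild hypercapnia (log2 0.36 ± 0.18). The lowest mild value is that of replicate 5.

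Of 76 symbols on the list of nuclear oxidative phosphorylation genes 40 were found and tested. The 40 genes had a median log2 fold change of 0.17, with 37 above 0. Beside 2.01% of all genes, 2 of the 40 were higher at an unadjusted p under 0.05. These were the complex I subunits NDUFA5 (48.6 ± 7.1 and 62.8 ± 9 CPM) and NDUFB2 (113 ± 15 and 140.2 ± 20.2 CPM, log2 0.31 ± 0.11). The list score was 7.32 to 7.56 in room air, 6.99 in mild replicate 5 and 7.57 to 7.84 in the other mild libraries. Without mild replicate 5 the median was 0.26 and 23 of the 40 were at an unadjusted p under 0.05, where 4.51% of all genes were. Here too the library left out was the lowest on the list, so this is no separate test. In limma with quality weights there were 18, where 3.96% of all genes were higher. Why mild replicate 5 differed from the others was not tested.

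**Figure D4:**
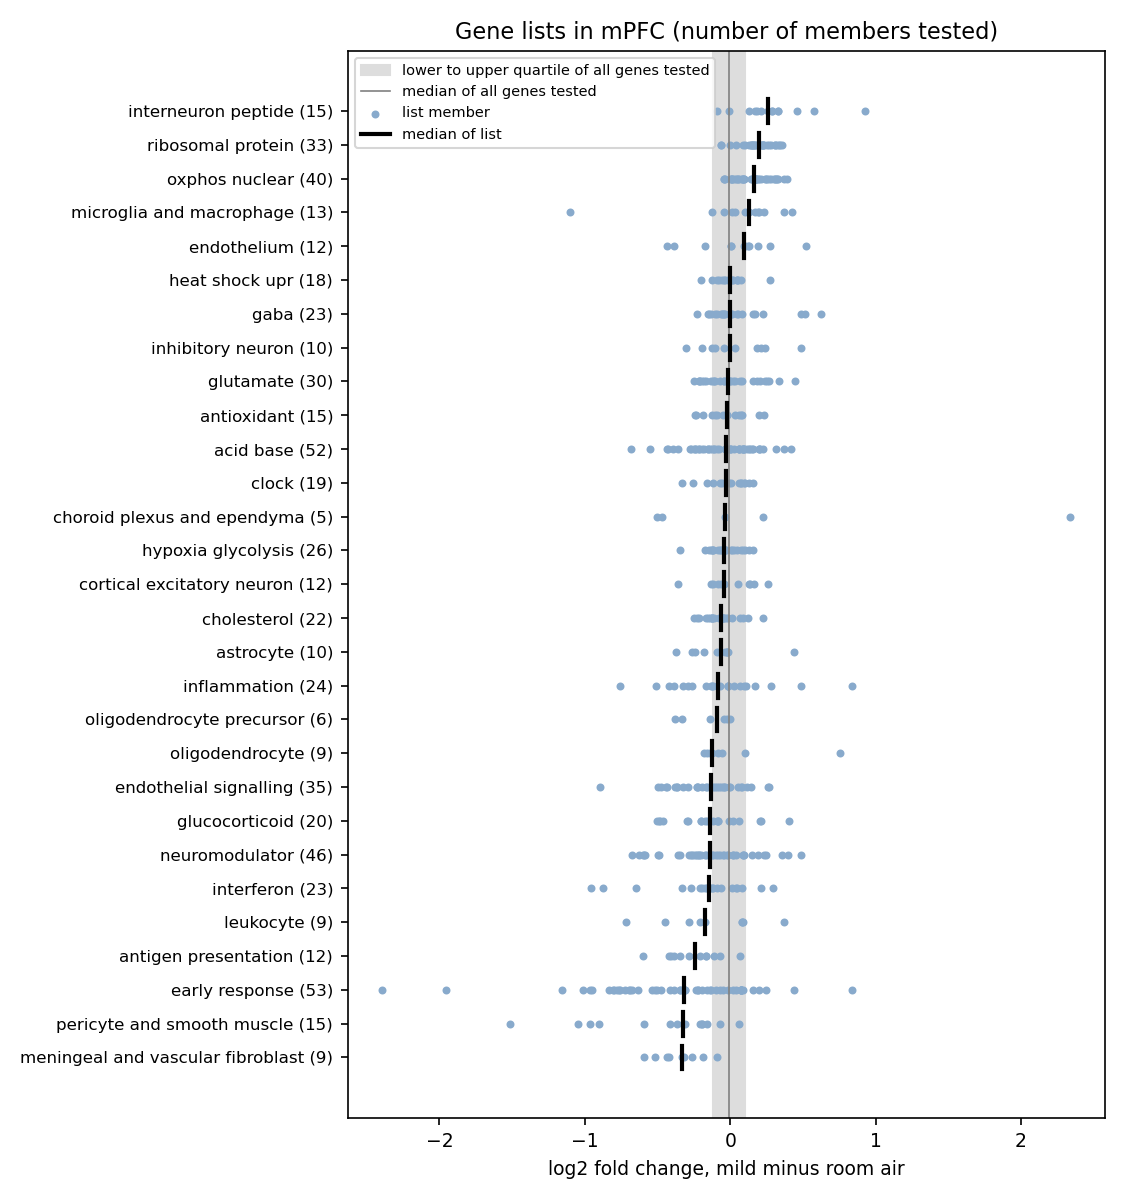
Log2 fold change in mPFC, mild minus room air, of every member (points) and the median (black bar) of each list with at least 5 members tested; the grey band runs from the lower to the upper quartile of all genes tested. The medians of the early response, pericyte and fibroblast lists lie to the left of the band, and those of the ribosomal protein and oxidative phosphorylation lists to the right of 0. The highest median is that of the neuropeptide list (0.26), and the antigen presentation median is also low (-0.25).

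No gene that handles CO2, bicarbonate or protons stood out at this depth. Of 52 tested, 30 lay below 0, the median was -0.03 and 0 were at an unadjusted p under 0.05 in edgeR in either direction, beside 1.44% and 2.01% of all genes. DESeq2 also had 0 of them at that p, and limma with quality weights had 3 lower, where 3.03% of all genes were lower in limma. Among carbonic anhydrases, which interconvert CO2 and bicarbonate, CA2 stood at 69.7 ± 13.3 CPM in room air, against 61 ± 5 in mild hypercapnia, and CA4 at 43.3 ± 8.82 and 50.6 ± 11.4. The bicarbonate transporters SLC4A4 (88.8 ± 20.5 and 82.2 ± 22.4 CPM) and SLC4A10 (223 ± 13.7 and 232 ± 73.7 CPM) overlapped between groups. So did the proton-sensing receptor GPR4, at 5.26 ± 1.1 and 4.41 ± 1.11 CPM. The gene of smallest p on the list was the potassium channel KCNK10, at 5.7 ± 1.54 and 4.22 ± 1.1 CPM (log2 -0.44 ± 0.23).

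The glucocorticoid list, of responsive genes and of the receptor with its enzymes and chaperones, showed no gene at an unadjusted p under 0.05 in edgeR. Of 20 tested, 15 lay below 0 with a median of -0.14. Of the 16 responsive genes among them, 13 lay below 0 with a median of -0.17. At that p DESeq2 had 1 lower (1.49% of all genes) and limma with quality weights 1 higher (3.96% of all genes). FKBP5, a chaperone strongly induced by cortisol, stood at 15.9 ± 4.47 CPM in room air, against 15.1 ± 3.26 in mild hypercapnia (log2 -0.08 ± 0.35), SGK1 at 142 ± 42.4 and 128 ± 20.9, and TSC22D3 at 119 ± 9.41 and 109.6 ± 7.91. DDIT4, an inhibitor of mTOR signalling, was the lowest in p, at 76.1 ± 24.2 and 55.3 ± 11.4 CPM (log2 -0.46 ± 0.23). The 19 clock genes had a median of -0.03 and 0 at an unadjusted p under 0.05, with PER1 at 50.3 ± 5.85 and 52.4 ± 5.42 CPM and PER2 at 14.8 ± 2.66 and 15.9 ± 1.78. Hypoxia and glycolysis genes (26 tested, 17 below 0, median -0.04) and cholesterol synthesis genes (22 tested, 17 below 0, median -0.07) held 0 as well in edgeR and in DESeq2. In limma with quality weights 1 and 4 were lower, where 3.03% of all genes were. INSIG1, which retains the sterol sensor in the endoplasmic reticulum, was the cholesterol gene of smallest p, at 64.3 ± 4.38 and 55.4 ± 5.5 CPM (log2 -0.22 ± 0.11).

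The transmitter lists each held 1 gene or none at an unadjusted p under 0.05, a share near the 1.44% lower and 2.01% higher of all genes. Of 30 glutamate genes 1 was higher at an unadjusted p under 0.05, the NMDA receptor subunit GRIN2A, which ran from 9.74 CPM through 15.1 to 17.1 in room air and from 15.9 through 18 to 26.4 in mild hypercapnia (log2 0.44 ± 0.17). GRIN1, the obligate subunit of the same receptor, stood at 634 ± 131 and 546 ± 53.6 CPM (log2 -0.22 ± 0.13), and the list median was -0.02. Of 23 GABA genes 1 was higher, the receptor subunit GABRB2, at 16.9 ± 2.04 and 24.2 ± 8.58 CPM (log2 0.52 ± 0.20), with a median of 0.00 over the list. Of 46 genes of catecholamine, serotonin, acetylcholine, adenosine and orexin signals 33 lay below 0 (median -0.14) and 1 was lower at an unadjusted p under 0.05, the muscarinic receptor CHRM4, at 20.7 ± 4.78 and 16.3 ± 2.43 CPM. The 14 catecholamine receptors and enzymes among them had a median of -0.30 with 12 below 0, and DRD1, a dopamine receptor, stood at 51 ± 7.47 and 43.5 ± 9.89 CPM (log2 -0.23 ± 0.18). Of 15 neuropeptides of cortical neurons 13 lay above 0 (median 0.26) and 0 were at an unadjusted p under 0.05. SST, somatostatin, stood at 304 ± 127 and 345 ± 92.3 CPM, VIP at 70.9 ± 20 and 82 ± 14.4, CCK at 824 ± 145 and 928 ± 166, and NPY at 67 ± 11.8 and 63.1 ± 20.6, and the ranges of these 4 overlapped.

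The 3 immune lists held 0 genes at an unadjusted p under 0.05 in edgeR, and the sign of their medians rested on single libraries. Of 23 interferon-induced genes 17 lay below 0 (median -0.15), of 24 inflammatory genes 16 (median -0.08) and of 12 antigen presentation genes 11 (median -0.25). Without room air replicate 4 the interferon median was 0.04 and the antigen presentation median 0.05, and without mild replicate 3 they were -0.33 and -0.66. The inflammatory median was -0.28 without mild replicate 3 and 0.02 without mild replicate 1. CXCL10, an interferon-induced chemokine, varied from 6.06 to 112 CPM within room air and from 5.48 to 65.8 within mild hypercapnia. Histocompatibility genes are uncertain for the same reason as the ribosomal proteins. Of the microglia and macrophage markers 10 of 13 lay above 0, with a median of 0.13 that was -0.16 without mild replicate 3 and 0.24 without room air replicate 1, and P2RY12, a receptor of resting microglia, stood at 28.2 ± 7.62 and 36.5 ± 10.6 CPM (log2 0.37 ± 0.21). The 9 leukocyte markers had a median of -0.17, which was -0.31 without room air replicate 3 and 0.07 without room air replicate 4.

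Among stress genes, HSPB8, a small heat shock protein, ran from 135 CPM through 149 to 165 in room air and from 158 through 180.3 to 203 in mild hypercapnia (log2 0.28 ± 0.09). It was the 1 of 18 chaperone and unfolded protein response genes at an unadjusted p under 0.05, and the list median was 0.00. Of 15 antioxidant genes SRXN1, sulfiredoxin, was lower (27.8 ± 2.38 and 23.4 ± 2.32 CPM, log2 -0.25 ± 0.09) and SOD1, the cytosolic superoxide dismutase, higher (618 ± 78.2 and 709 ± 83.6 CPM, log2 0.20 ± 0.09), with a median of -0.02. Over all genes 1.44% were lower and 2.01% higher at an unadjusted p under 0.05.

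Few markers of neurons, glia and other cells were at an unadjusted p under 0.05, where 1.44% of all genes were lower and 2.01% higher. Excitatory neuron markers had a median of -0.04 and 7 of 12 below 0, inhibitory neuron markers a median of 0.00 and 5 of 10 below 0, each with 0 at an unadjusted p under 0.05. Of 10 astrocyte markers 9 lay below 0 (median -0.07), and the exception SOX9, a transcription factor of astrocytes, ran from 7.63 CPM through 10.3 to 12.6 in room air and from 12 through 13.3 to 15.8 in mild hypercapnia (log2 0.44 ± 0.15). GFAP, the filament protein of astrocytes, varied from 1444 to 4619 CPM within room air and from 1433 to 4257 within mild hypercapnia. Of 9 oligodendrocyte markers tested 7 lay below 0 (median -0.13), with 0 at an unadjusted p under 0.05, and the median was -0.22 without room air replicate 6 and 0.20 without room air replicate 1. All 6 markers of oligodendrocyte precursors lay below 0 (median -0.09), 1 of them, CSPG4, at an unadjusted p under 0.05 (11 ± 1.95 and 8.48 ± 1.6 CPM). Of the 5 choroid plexus and ependyma markers tested, TTR, the transthyretin of choroid plexus, stood at 1.46 ± 1.18 and 7.46 ± 13.7 CPM, the latter through mild replicate 6 at 35.37 CPM (log2 2.34, and 0.35 without it), and the list median was -0.04. The 1 erythrocyte marker tested, AHSP, stood at 0.867 ± 0.222 and 1.00 ± 0.64 CPM. The medians of the choroid plexus, astrocyte, excitatory neuron, inhibitory neuron, endothelial, glutamate, GABA, clock, chaperone, antioxidant and CO2 and proton lists changed sign when single libraries were left out.

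Whether the mild state differed from the moderate one in mPFC was tested directly. No gene passed in edgeR at an adjusted p under 0.05 (0%), with 390 lower (2.53%) and 335 higher (2.17%) in moderate than in mild at an unadjusted p under 0.05. The 5 genes with a symbol and the smallest p were all higher in mild (edgeR adjusted p = 0.95 for each): PMS1 at 20.2 ± 2.53 CPM in mild and 13.2 ± 2.54 in moderate hypercapnia, the signal recognition particle subunit SRP9 at 59.7 ± 10.6 and 44.6 ± 3.29, the lipid scramblase TMEM41B at 57.7 ± 10.7 and 40.3 ± 6.42, the kinase anchor AKAP7 at 16.9 ± 4.66 and 11.2 ± 1.01, and the protease PRSS33 at 9.54 ± 2.76 and 5.49 ± 1.24. Against the same room air libraries the early response list had a median of -0.32 in mild and -0.15 in moderate hypercapnia, with 40 and 38 of 53 below 0. At an unadjusted p under 0.05, 20 were lower in mild and 8 in moderate, where 1.44% and 0.961% of all genes were lower. Both share the room air libraries, so the 2 sets of values do not stand for separate evidence. APOLD1 was at 2.7 ± 1.21 CPM in moderate hypercapnia (log2 -1.68 ± 0.38 against room air), ARC at 72.1 ± 27.8 (-0.72 ± 0.30), NR4A1 at 78.3 ± 39.6 (-0.73 ± 0.30) and DUSP1 at 137 ± 43.3 (-0.52 ± 0.22). CCN2, at 40.2 ± 11.8 CPM (-0.05 ± 0.22), and DUSP2, at 9.74 ± 2.57 (0.06 ± 0.18), were near their room air levels. Ribosomal proteins had a median of 0.28 in moderate hypercapnia, with all 33 above 0, and oxidative phosphorylation genes 0.05.

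The mild response in mPFC was also set against the mean mild response of the 3 brainstem regions, in a fit of 48 libraries over 16181 genes that took the libraries as independent. The series text gives 6 animals per condition, and each region has 6 libraries per condition. The regions therefore likely share animals, which this fit ignores, and like changes in several regions are not separate evidence. No gene passed in edgeR at an adjusted p under 0.05 (0%), and 177 genes were lower (1.09%) and 188 higher (1.16%) in this difference at an unadjusted p under 0.05. Of the early response list 8 were lower and 0 higher: ATF3, ARC, CCN2, MYC, NR4A2, CSRNP1, TRIB1 and JUNB. With the replicate number within each condition as a block across regions there were 17 (2.35% of all genes), which would block by animal if a number marks one. ATF3 had the largest difference of these, -2.21 ± 0.63 on the log2 scale (edgeR adjusted p = 1.00), with log2 fold changes of 0.87 in NTS, -0.19 in VRC and 0.10 in RTN. ARC, at 113 ± 48.6 CPM in room air mPFC on the scale of this fit, was at 3.21 ± 0.799 in NTS, 1.78 ± 0.577 in VRC and 4.76 ± 0.98 in RTN. Its difference was -0.87 ± 0.28. For APOLD1 the difference was 0.01 ± 0.60, with log2 fold changes of -2.33 in NTS, -2.64 in VRC and -2.25 in RTN. The median of the early response list was -0.16 in NTS, -0.09 in VRC and -0.01 in RTN, with 33, 36 and 28 of 53 below 0, where 51.6%, 49.8% and 49.5% of all genes were below 0. The other genes with a symbol and the smallest p in this difference were the cytokine TNFSF15 (-2.60 ± 0.69), the nuclear protein SWT1 (-0.80 ± 0.24), the cytokine receptor subunit IL20RB (-2.74 ± 0.82) and MYC (-0.61 ± 0.19), a growth-related transcription factor. For IL20RB the log2 fold changes were 0.46 in mPFC, 1.42 in NTS, 4.40 in VRC and 3.81 in RTN, and for TNFSF15 they were -0.79, 0.53, 1.67 and 3.23, so the larger part of each difference lay in the brainstem values. TNFSF15 and IL20RB were at a mean of about 1 CPM or less in both mPFC groups.

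**Figure D5:**
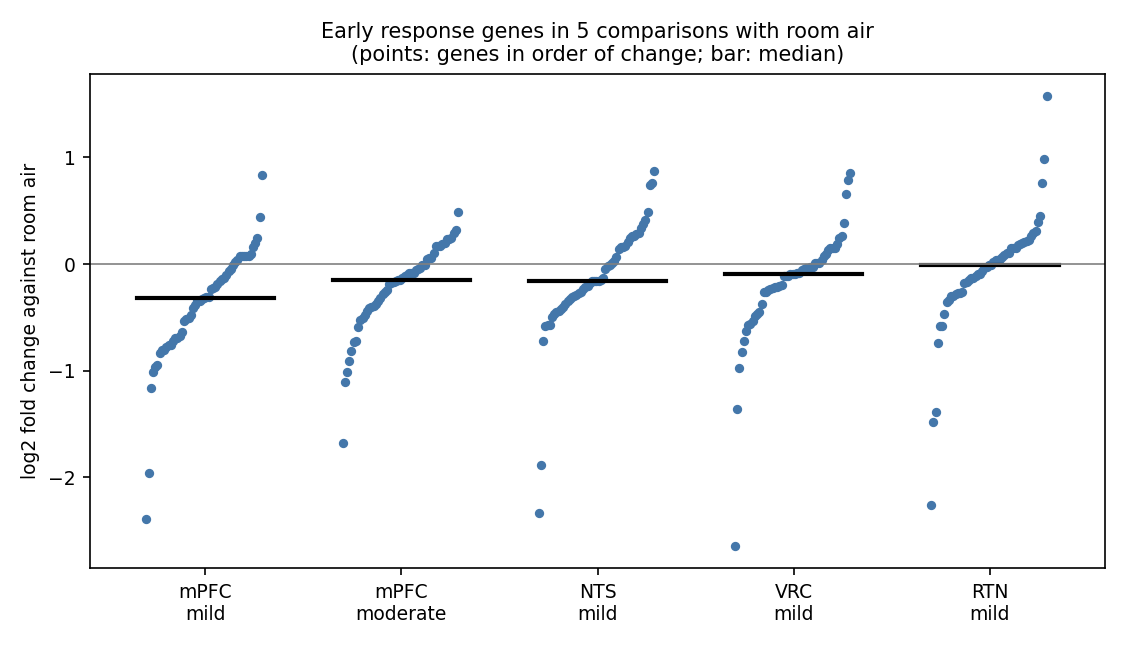
Log2 fold change against room air of the 53 early response genes (points, in order of change) in mPFC under mild and moderate hypercapnia and in NTS, VRC and RTN under mild hypercapnia; bars are medians. The mPFC mild median of -0.32 is the lowest of the 5, and the 2 mPFC columns share their room air libraries.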

How the data were processed

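RNA-seq libraries of 12 mPFC samples (6 room air, 6 mild hypercapnia) were compared. The authors deposited 1 table with raw whole-number counts per gene for 72 libraries, RPKM values and, in a length column of the unit other, gene model lengths. Tools named in the submitters' processing notes are STAR, featureCounts, edgeR, Trimmomatic and FastQC. Their versions, the strand setting and the genome build and annotation were not given in the sources used here. Most genes span less than their listed length, so positions are given by chromosome. Of the genes, 6643 have no symbol.

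Counts of the 18 mPFC libraries were fitted in R 4.3.3 by the quasi-likelihood test of edgeR 4.0.16, with TMM factors, after filterByExpr (min.count of 10), and p-values were adjusted by Benjamini-Hochberg over 15403 genes, with a threshold of 0.05. CPM values use TMM-scaled totals. Their errors are SD, and those of log2 fold changes SE. List scores are means of log2(CPM + 0.5). Brainstem responses came from a fit of 48 libraries. Libraries within a group were not near copies (chi-square over degrees of freedom 15.71 to 102.33).

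The comparison and the 31 gene lists (18 of pathways, 13 of cell types; 638 of 794 symbols found) were chosen with earlier results of these data known. Named were genes called by edgeR or DESeq2, the 10 of smallest p in each direction with a symbol and at least 5 CPM, up to 4 members of a list at an unadjusted p under 0.05, members whose groups did not overlap, and the 5 of smallest p in the contrasts with moderate hypercapnia and the brainstem. Other genes of a list are named as examples of its roles.

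On simulated data for mPFC (15309 genes) edgeR called 34.3% of genes changed 1.5-fold, 77.6% changed 2-fold and 93.9% changed 4-fold. These were 23 of 67, 52 of 67 and 62 of 66 genes, none of them of low CPM. Many called genes loosen the Benjamini-Hochberg cut. In the measured libraries no gene passed in edgeR, so the cut was stricter and these shares overstate what could be called. Alternatives were RLE factors, no filter, DESeq2 1.42.0, limma 3.58.1 with quality weights, a replicate block, the 2 groups alone, a smooth muscle score as a covariate and each library left out. A fibroblast score, edgeR's newer quasi-likelihood form, leaving out 2 libraries, and counts of 4 lists under each setting were chosen after seeing the data.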

Additional observations from a re-analysis of the deposited data

Results flagged for a closer look

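In 21 of 176 groups of 6 libraries 1 library lay far from the other 5, by Dixon's criterion. For normally distributed values chance meets it in about 1 group in 20. Genes were checked on CPM without a log scale, and the 16 flagged for genes all had a highest value apart. The 21 are therefore not shown to be more than chance gives, and they are given as values.

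Mild replicate 5 had the lowest scores for ribosomal proteins (mean log2 CPM 5.51, the others 6.63 to 6.83) and nuclear oxidative phosphorylation genes (6.99, the others 7.57 to 7.84). It had the highest CPM for AKAP7 (26.33, the others 14.2 to 15.4), EIF2S1 (234.6, the others 156 to 181) and IL20RB (2.876, the others 0.269 to 0.919).

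Mild replicate 4 was the highest mild library for the early response genes FOS (93.97 CPM, the others 49.9 to 59), NR4A1 (104.5, the others 46.7 to 68.2) and DUSP2 (9.915, the others 6.13 to 7.35). Among room air libraries, replicate 6 was the highest for IER2 (149.7 CPM, the others 74.6 to 101.0) and MAFF (3.735, the others 1.17 to 2.03).

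Room air replicate 2 was the highest for the smooth muscle genes MYH11 (365.4 CPM, the others 35.1 to 90.0) and CNN1 (74.23, the others 9.75 to 27.8), for CSPG4, which pericytes also express (14.7, the others 9.47 to 11.4), and for TTR (3.847, the others 0.70 to 1.15). TTR was highest among mild libraries in replicate 6 (35.37 CPM, the others 0.282 to 3.22).

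Other single libraries were room air replicate 4 for PLAAT2 (31.56 CPM, the others 0.406 to 8.43) and room air replicate 1 for RPP30 (20.3, the others 14.53 to 15.96) and SOD1 (769.4, the others 542 to 615). In list scores they were mild replicate 1, lowest for acid-base genes (3.6, the others 3.78 to 3.88), room air replicate 5, lowest for chaperones (7.301, the others 7.37 to 7.40), and mild replicate 2, highest for astrocyte markers (7.998, the others 7.354 to 7.503).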

How the results depend on the processing

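The count of genes at an adjusted p under 0.05 was 0 in edgeR, 2 in DESeq2 (APOLD1 and CSRNP1) and 0 to 1 when single libraries were left out (1, APOLD1, without room air replicate 1). Lower genes at an unadjusted p under 0.05 numbered 222, 467 in limma with quality weights and 159 to 368 over libraries left out. Higher genes numbered 310, 610 in limma, 613 without both libraries that stand apart and 226 to 698 over libraries left out, the last without mild replicate 5. Early response genes lower at that p numbered 20, and 14 to 22 over all settings; 1 was higher in place of 0 in DESeq2, with the replicate block and in edgeR's newer form, and 0 to 1 over libraries left out. Ribosomal proteins higher at that p numbered 0, 7 in limma, 1 with the fibroblast score, 25 without both libraries and 0 to 24 over libraries left out. Oxidative phosphorylation genes numbered 2, 4 with RLE factors and in DESeq2, 18 in limma, 21 without both libraries and 2 to 23 over libraries left out. Smooth muscle markers lower numbered 2, 0 in limma and without both libraries, 1 with the replicate block and with either score as a covariate, and 0 to 5 over libraries left out. The contrasts with moderate hypercapnia and with the brainstem gave 0 genes in every setting run.

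Same-numbered room air and mild libraries did not deviate together: r was -0.483 to 0.255 over 6 pairs, 3 were over 0.1, and 0 of 6 pairs matched best. With the number as a replicate block 0 genes passed, 201 were lower and 252 higher at an unadjusted p under 0.05, and 17 early response genes were lower. Of 1274 log2 fold changes of named genes under an alternative, 7 changed sign: IL20RB was -0.26 without both libraries and -0.16 to 0.79 over libraries left out, and PRSS33 -0.057 to 0.163. With 6 libraries a group, edgeR called 34.3% of 1.5-fold changes in simulated data, where the cut was looser than in the measured libraries. Absence of a call therefore does not show equal levels.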
